A study of Mus musculus with 10 samples.

Results

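The Eph receptors and their ephrin ligands, the netrins and their receptors, and the Slit ligands with their Robo receptors were taken as 1 set of 38 axon guidance genes. The members were chosen by gene name, as the rows of the count table whose gene identifier is annotated with one of these names, and 37 of the 38 were found among 54146 genes. *Ntn3* was not analysed here. The set holds 5 ephrin-A and 3 ephrin-B ligands, 9 EphA and 5 EphB receptors, 2 netrins, 6 netrin receptors, 3 Slit ligands and 4 Robo receptors. RNA was sequenced from the lumbar spinal cord of 10 mouse embryos at E12.5, with the dorsal root ganglia left on. The 5 *Dot1l*-cKO embryos (mutants) carried Wnt1cre2/+ and Dot1lfl/fl, so that both alleles of *Dot1l*, which encodes the histone H3K79 methyltransferase, were floxed and a Wnt1-cre transgene was present. The 5 controls had no cre transgene. Litter 1 held 3 *Dot1l*-cKO embryos and 3 controls with 2 floxed alleles (+/+; Dot1lfl/fl), and litter 2 held 2 *Dot1l*-cKO embryos and 2 controls with 1 floxed allele (+/+; Dot1lfl/+). In this model the cre is driven by *Wnt1* sequences, which are active mainly in the dorsal neural tube and the neural crest, and which cells of the tissue lost *Dot1l* was not measured here. The background was B6.Cg-E2f1Tg(Wnt1-cre)2Sor/J in every embryo. No group of controls carried the cre alone.

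Axon guidance genes instruct growing axons and migrating neurons where to go. Ephrins are membrane-bound ligands that usually repel axons carrying Eph receptors, with A-class ephrins held by a lipid anchor and B-class ephrins by a transmembrane domain. Netrin from the floor plate and the ventricular zone attracts commissural axons through DCC and repels axons through UNC5 receptors, while Slit proteins of the floor plate act through ROBO receptors to expel axons from the midline.

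The question put to the data was whether these subfamilies differed between the genotypes, within each litter and over both, and between the litters. Levels are given as CPM, read counts scaled to a common library total after TMM normalisation, and all fold changes are on the log2 scale. Total counts lay between 40949585 and 61194291 in controls and between 54870771 and 68928443 in *Dot1l*-cKO embryos, and all 37 members passed the expression filter in every comparison. Counts over the whole *Dot1l* gene, which do not isolate the floxed part, were no check of the labels. Their mean was 94.0 ± 7.85 CPM among controls and 106 ± 6.18 CPM among mutants (SD, n = 5 each). Both *Dot1l*-cKO embryos of litter 2 had Y-linked *Ddx3y* at 41.5 to 46.7 CPM and *Xist* at 6.00 to 6.79 CPM, whereas the other 8 embryos had *Ddx3y* at 0.242 CPM or less and *Xist* at 499 to 890 CPM. Within litter 2, genotype therefore cannot be told apart from this sex-linked difference or from the number of floxed alleles. Markers of neurons and neural progenitors were detected in all embryos, as were markers of floor plate, roof plate, motor neurons, ganglion neurons, crest glia, mesenchyme, endothelium, blood cells and microglia. In such bulk tissue, fewer cells of a type and less RNA per cell cannot be told apart.

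Among the ligands, *Ntn1*, the main floor plate and ventricular zone netrin, had the highest level per exon length of all 37 members, at 48.8 ± 3.27 CPM per kb (SD, n = 10). *Ntn1* made up 88.7 to 93.7% of the per-length netrin signal across embryos, with *Ntn4*, a netrin of basement membranes, as the remainder. *Efnb3*, the ephrin-B of the spinal midline, followed at 34.8 ± 4.14 CPM per kb, and *Slit1* stood at 29.8 ± 2.29 CPM per kb, or 58.2 to 71.4% of the per-length Slit signal. In the ephrin-A class, *Efna2* (17.1 ± 2.45 CPM per kb), *Efna3* (16.0 ± 1.63) and *Efna5* (14.2 ± 1.95) each differed from the next by less than the larger of their SDs, and stood above *Efna4* and *Efna1*.

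Among the receptors, *Robo3*, which commissural axons use to reach the midline, was the highest at 40.6 ± 4.68 CPM per kb (SD, n = 10). *Neo1*, the DCC relative neogenin, stood at 31.0 ± 1.54 CPM per kb and took 46.1 to 50.4% of the per-length netrin receptor signal, ahead of *Dcc* at 15.9 ± 3.19 CPM per kb. *Ephb2* led the EphB receptors at 26.8 ± 3.62 CPM per kb. *Epha4*, the receptor that keeps spinal axons from crossing back over the midline, led the EphA receptors at 17.6 ± 2.09 CPM per kb. The lowest member was *Epha1*, with 15 to 71 counts per embryo and 0.170 ± 0.0681 CPM per kb. The plot of per-length levels shows these orders.

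**Figure D1:**
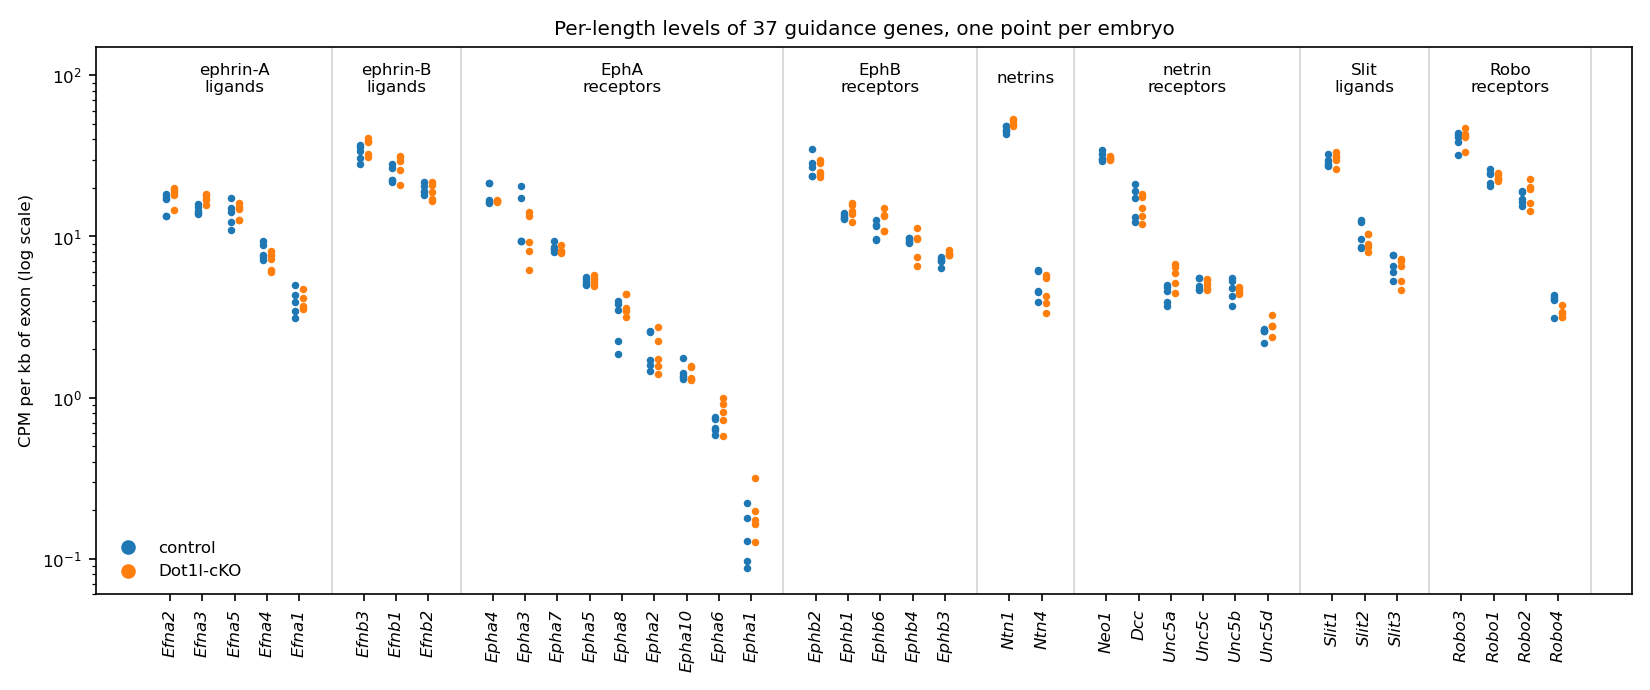
Per-length levels of the 37 guidance genes in CPM per kb of exon on a log scale, grouped by subfamily, with 1 point per embryo in blue for controls and orange for *Dot1l*-cKO. *Ntn1* is the highest at a mean of 48.8 CPM per kb and *Epha1* the lowest at 0.170, and control and *Dot1l*-cKO points overlap for all members but *Ephb3*.

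The promoter sequences of 4 members are shown, the pair that differed between the genotypes over both litters (*Efna3* and *Ephb6*) and the members with the largest rise and fall between litters (*Epha3* and *Epha8*). They are the bases upstream of the annotated start in RefSeq's GRCm38.p6 table, 5′ to 3′ on the strand of the gene, shortened where the GENCODE start lies upstream of the RefSeq start. Of the 37 members, 32 had an entry in this table. Capitals mark GGGCGG, the GC box, found on either strand (CCGCCC on the other), with overlapping matches merged.
*Efna3*, chr3:89322966-89323189, minus strand: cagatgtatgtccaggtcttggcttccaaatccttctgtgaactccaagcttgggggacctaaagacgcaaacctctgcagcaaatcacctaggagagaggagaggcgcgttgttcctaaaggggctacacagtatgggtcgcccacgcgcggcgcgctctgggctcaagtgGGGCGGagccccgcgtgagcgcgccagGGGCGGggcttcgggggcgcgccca
*Ephb6*, chr6:41605261-41605481, plus strand: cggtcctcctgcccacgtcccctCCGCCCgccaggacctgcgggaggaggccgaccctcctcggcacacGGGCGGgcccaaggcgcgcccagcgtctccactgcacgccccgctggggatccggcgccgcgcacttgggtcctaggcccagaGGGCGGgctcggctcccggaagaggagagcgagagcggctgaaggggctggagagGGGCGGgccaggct
*Epha3*, chr16:63864176-63864425, minus strand: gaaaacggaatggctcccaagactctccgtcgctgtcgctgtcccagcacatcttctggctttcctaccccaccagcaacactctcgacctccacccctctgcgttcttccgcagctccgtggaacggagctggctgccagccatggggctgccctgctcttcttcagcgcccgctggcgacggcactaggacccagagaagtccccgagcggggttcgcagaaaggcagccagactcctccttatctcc
*Epha8*, chr4:136956817-136957066, minus strand: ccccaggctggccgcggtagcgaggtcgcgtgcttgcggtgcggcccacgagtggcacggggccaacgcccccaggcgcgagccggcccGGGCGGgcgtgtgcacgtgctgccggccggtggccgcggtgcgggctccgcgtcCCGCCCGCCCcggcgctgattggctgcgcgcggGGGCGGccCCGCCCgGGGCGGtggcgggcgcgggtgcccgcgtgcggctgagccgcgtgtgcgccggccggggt
The GC box matched 2 times in the 224 bases of *Efna3*, 4 times in the 221 bases of *Ephb6*, 0 times in the 250 bases of *Epha3* and 6 times in the 250 bases of *Epha8*. Of the 32851 promoter windows in the table, 29.1% held a match within 224 bases, 28.7% within 221 bases and 32.7% within 250 bases. The letters TATAAA, searched on both strands, were in none of the 4 windows. Of all windows, 10.3% held them within 224 bases, 10.0% within 221 bases and 12.4% within 250 bases. CpG dinucleotides numbered 18 in *Efna3*, 24 in *Ephb6*, 16 in *Epha3* and 46 in *Epha8*. The median over all windows was 5 within 224 bases, 5 within 221 bases and 6 within 250 bases. A match is a description of the letters and not a binding site.

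Over both litters, 2 of 37 members passed the quasi-likelihood test of edgeR after adjustment over all genes, both higher in *Dot1l*-cKO. Of the 19773 genes tested, 2.99% were called in either direction and 1.9% were called higher. The members' median log2 fold change was 0.01, beside -0.01 over all genes. The 2 members were the ligand *Efna3* and the receptor *Ephb6*. Of the cell type markers over both litters, edgeR called 1 of 6 for ganglion neurons as lower and 1 of 6 for crest glia as higher. In the other lists no marker was called. At an unadjusted p under 0.05 were, among others, 4 of 6 ganglion neuron, 2 of 6 crest glia, 4 of 8 endothelial and 3 of 5 roof plate markers, where 21.7% of all genes were. Their part in the members' values was not tested.

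*Efna3*, an ephrin-A ligand (chromosome 3 from 89313899 to 89322965), stood in litter 1 at 37.3, 39.0 and 34.8 CPM in controls and 43.7, 40.8 and 44.9 CPM in *Dot1l*-cKO. The controls of litter 2 had 34.2 and 33.7 CPM and the mutants 38.4 and 42.2 CPM. Every *Dot1l*-cKO embryo was above every control of its litter. The log2 fold change was 0.23 (SE 0.05, adjusted p = 0.0354, edgeR), or 1.17-fold. An antisense gene covers 344 of its 2434 exon bases, and reads of the pair cannot be told apart without strand.

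*Ephb6*, an Eph receptor without kinase activity (chromosome 6 from 41605482 to 41620509), stood in litter 1 at 47.7, 43.7 and 44.2 CPM in controls and 56.8, 51.6 and 50.8 CPM in *Dot1l*-cKO. The litter 2 levels were 35.9 and 36.2 CPM in controls and 40.6 and 40.8 CPM in mutants. The genotypes did not overlap within a litter, but the *Dot1l*-cKO embryos of litter 2 lay below all controls of litter 1. Over both litters the log2 fold change was 0.21 (SE 0.05, adjusted p = 0.0402, edgeR), or 1.16-fold. Both calls were near the threshold and depended on single embryos, named by litter and label number. *Efna3* kept its call without control 5, *Dot1l*-cKO 3 or *Dot1l*-cKO 7 of litter 1 or *Dot1l*-cKO 4 of litter 2, and lost it without each of the other 6 embryos, with adjusted p up to 0.114. *Ephb6* kept its call only without *Dot1l*-cKO 7 of litter 1 and lost it without each of the other 9, with adjusted p up to 0.106. The log2 fold changes stayed between 0.21 and 0.26 for *Efna3* and between 0.18 and 0.23 for *Ephb6*. In litter 1 alone, without the embryos with Y-linked expression, they were 0.23 (adjusted p = 0.196) and 0.24 (adjusted p = 0.175).

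The next smallest p-values belonged to *Epha3*, *Unc5a* and *Efnb3*, none of which passed. *Epha3*, an ephrin-A receptor of motor and commissural neurons, stood in litter 1 at 81.5, 81.4 and 81.4 CPM in controls and 53.7, 80.2 and 70.8 CPM in *Dot1l*-cKO. The litter 2 controls had 150.2 and 178 CPM and the mutants 123 and 116 CPM. It was the only member whose *Dot1l*-cKO values lay below the controls in both litters, with a log2 fold change of -0.34 (SE 0.09, adjusted p = 0.0537, edgeR). *Unc5a*, a repulsive netrin receptor, stood in litter 1 at 15.5, 20.8 and 19.2 CPM in controls and 24.9, 28.2 and 18.6 CPM in *Dot1l*-cKO. Levels in litter 2 were 16.2 and 20.3 CPM in controls and 21.5 and 26.8 CPM in mutants, with a log2 fold change of 0.38 (SE 0.12, adjusted p = 0.084) and overlap in litter 1. *Efnb3* stood in litter 1 at 114, 117 and 108 CPM in controls and 131, 123 and 124 CPM in *Dot1l*-cKO. In litter 2 it stood at 98.0 and 90.2 CPM in controls and 99.6 and 103 CPM in *Dot1l*-cKO, with a log2 fold change of 0.14 (SE 0.04, adjusted p = 0.0893). The plot of values by embryo shows these members with the others named in the text.

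**Figure D2:**
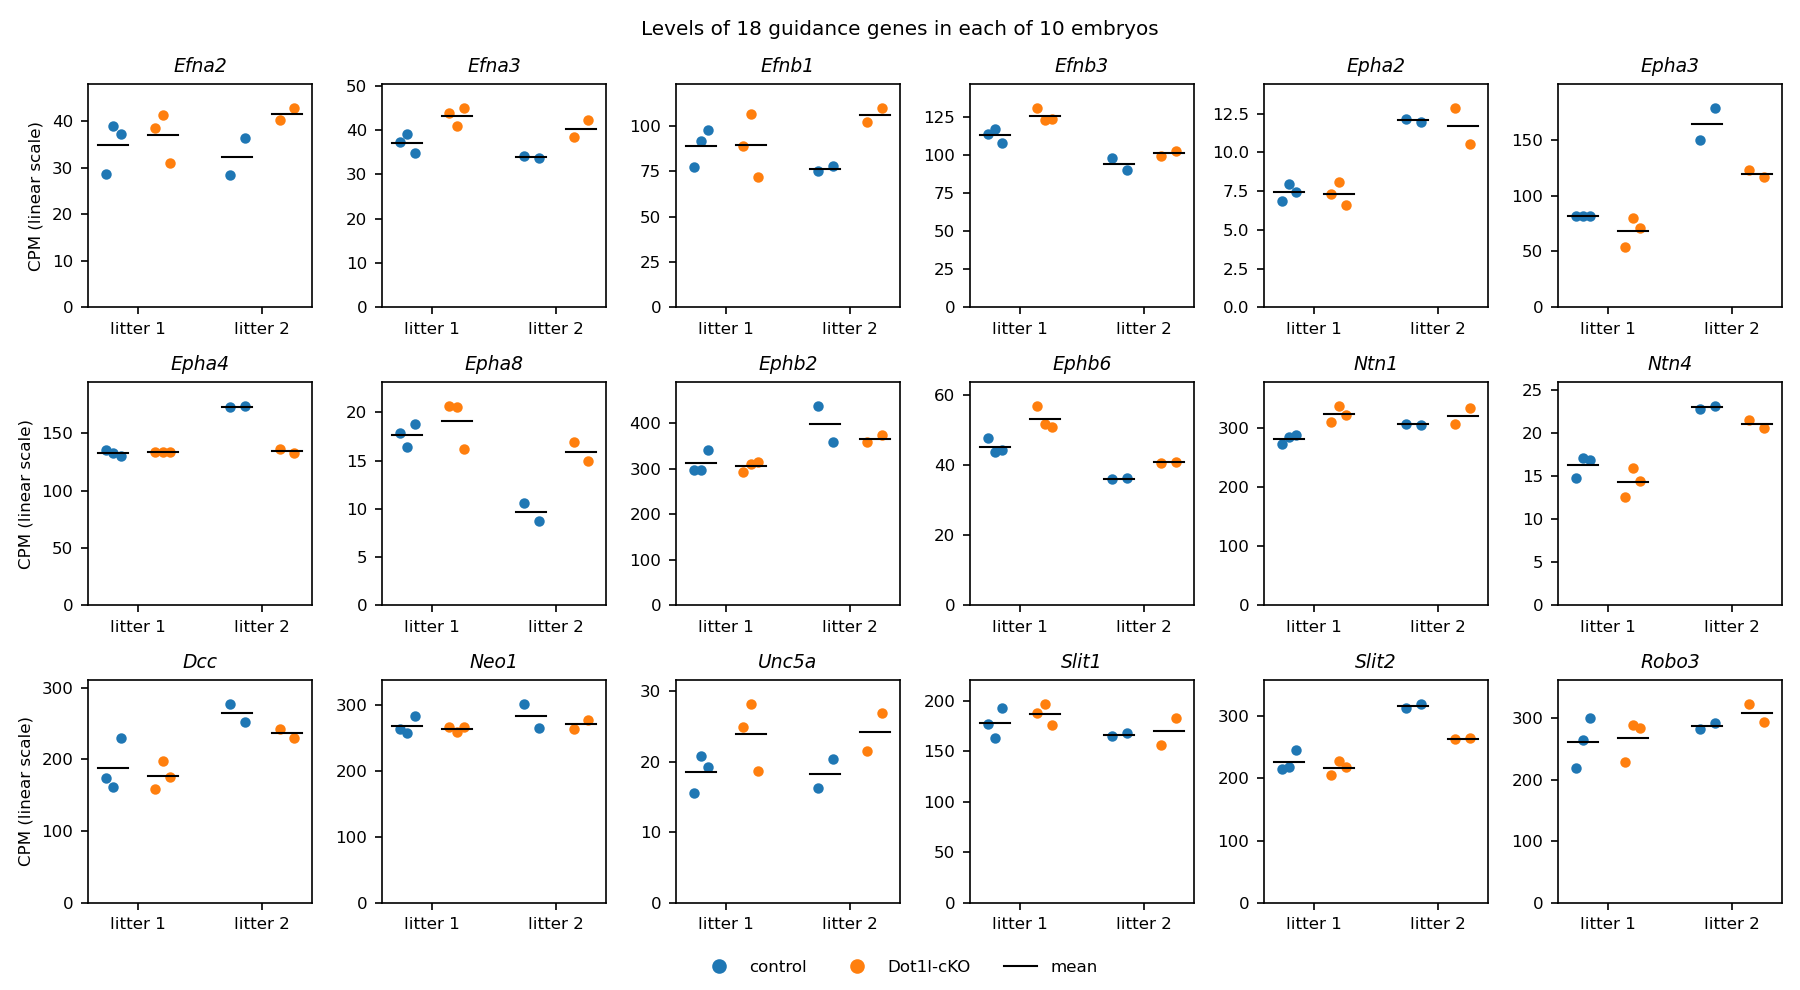
Levels of 18 guidance genes in CPM on linear axes that start at 0, for each embryo of litter 1 (3 controls in blue, 3 *Dot1l*-cKO in orange) and litter 2 (2 of each), with black lines for the means. *Efna3* and *Ephb6* are higher in *Dot1l*-cKO within both litters, and *Epha4* stands at 173 and 174 CPM in the litter 2 controls and at 130.0 to 137 CPM in the other 8 embryos.

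By the ranges alone, 4 members (*Ephb3*, *Ephb6*, *Efna3* and *Efnb3*) had all *Dot1l*-cKO values above all controls within both litters, and 1 (*Epha3*) had them below. Over all genes tested, the corresponding shares were 3.8% and 4.15%. *Ephb3*, another Eph receptor, singled out after its values were seen, was the single member whose groups did not overlap over all 10 embryos, at 46.8 ± 2.67 CPM in controls and 51.9 ± 1.85 CPM in *Dot1l*-cKO (SD, n = 5 each), with an adjusted p of 0.114 by edgeR. Of all genes, 1.01% separated this way over all embryos as higher and 0.915% as lower. In 2 members, *Epha5* and *Unc5b*, named after their values were seen, the groups separated in opposite directions in the 2 litters, as they did in 1.98% of all genes. DESeq2's Wald test with the same model called 7 of the 37 members, against 8.98% of all genes. It called *Efna3* and *Ephb6* and also *Unc5a* (log2 fold change 0.38, adjusted p = 0.0217), *Epha8* (0.35, adjusted p = 0.0396), *Ntn1* (0.14, adjusted p = 0.0447) and *Efnb3* (0.14, adjusted p = 0.0459) as higher and *Epha3* as lower (-0.34, adjusted p = 0.00824).

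At an unadjusted p under 0.05 there were 14 of 37 members, 3 of 9 EphA, 3 of 5 EphB, 2 of 5 ephrin-A and 1 of 3 ephrin-B genes among them, where 21.7% of all genes were. By subfamily, 4 of the 5 ephrin-A ligands and 2 of the 3 ephrin-B ligands had a log2 fold change above 0 over both litters, with medians of 0.04 and 0.14, and 1 of these 8, *Efna3*, was called. Of the EphA receptors 4 of 9 were above 0 with a median of -0.03 and 0 called, and of the EphB receptors 3 of 5 with a median of 0.11 and 1 called. No netrin, netrin receptor, Slit or Robo gene was called by edgeR, and 2 of 2, 1 of 6, 1 of 3 and 1 of 4 had an unadjusted p under 0.05. Those were *Ntn1* and *Ntn4*, *Unc5a*, *Slit2* and *Robo4*. The 95% interval of the log2 fold change ran from -0.12 to 0.10 for *Robo1*, from -0.14 to 0.06 for *Neo1*, from -0.11 to 0.23 for *Robo3* and from -0.30 to 0.07 for *Dcc*. Within litter 1, log2 fold changes were above 0 for 2 of 5 ephrin-A, 2 of 3 ephrin-B, 5 of 9 EphA and 3 of 5 EphB genes. The medians were -0.01, 0.01, 0.01 and 0.12. Within litter 2 the respective counts were 4, 3, 2 and 4, with medians of 0.25, 0.11, -0.05 and 0.15.

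Within litter 1, where *Dot1l*-cKO and controls all carried 2 floxed alleles and all 6 embryos had high *Xist*, no member passed edgeR's test, which called 0.0623% of all genes. At an unadjusted p under 0.05 there were 11 of 37 members, against 14.1% of all genes. limma-voom called 0 members, where it called 0.0415% of all genes, and DESeq2 called 1, where it called 3.5% of all genes. That member was *Robo4*, a Robo protein of blood vessels, singled out after its values were seen. *Robo4* stood at 23.0, 22.3 and 21.4 CPM in the controls and at 16.7, 18.004 and 17.8 CPM in the *Dot1l*-cKO embryos of litter 1, with no overlap (log2 fold change -0.34, SE 0.08, adjusted p = 0.118 by edgeR and 0.0116 by DESeq2). The summed level of 8 endothelial markers was 351 to 406 CPM in those controls and 282 to 314 CPM in those *Dot1l*-cKO embryos, with 7 of the 8 below 0 in log2 fold change, 0 of them called and none at 0 counts in all embryos, and its part in the *Robo4* values was not tested. In litter 2, *Robo4* stood at 21.7 and 16.4 CPM in controls and at 20.0 and 16.8 CPM in *Dot1l*-cKO, with overlap. Ganglion neuron markers in litter 1 summed to 355 to 400.2 CPM in controls and 261 to 327 CPM in mutants, with 3 of 6 below 0 and 1 called lower. All 8 mesenchyme and all 5 muscle and cartilage markers were below 0 there, with 0 called and overlapping sums. Their part in the members' values was not tested.

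Within litter 2, 5 members passed edgeR's test. *Efnb1* and *Epha8* were higher in *Dot1l*-cKO, where 3.98% of all genes were called higher, and *Epha3*, *Epha4* and *Slit2* were lower, where 1.16% of all genes were called lower. The 2 embryos of each genotype give little measure of the spread, and the limits from sex-linked genes and floxed alleles named above hold for each of the 5. The summed level of 6 ganglion neuron markers was 124 to 129 CPM in the controls and 164 to 193 CPM in the mutants of litter 2, against 355 to 400.2 CPM and 261 to 327 CPM in litter 1. In litter 2, crest glia markers summed to 104 to 120.3 CPM in controls and 153 to 169 CPM in mutants, erythroid markers to 1027 to 1116 CPM and 1242 to 1547 CPM, and mesenchyme markers to 1097 to 1274 CPM and 1323 to 1508 CPM. Roof plate markers summed to 15.6 to 19.6 CPM in mutants, above both controls. The 5 muscle and cartilage markers summed to 208 to 241 CPM in controls and 245 to 253 CPM in mutants, with 1 called higher and 3 lower. Floor plate markers, in controls and mutants, summed to 329 to 347 CPM and 284 to 303 CPM, and the 7 progenitor markers to 2181 to 2212 CPM and 2057 to 2087 CPM, though 3 of the 7 were above 0 in log2 fold change and the 1 called was higher. Their part in the members' values was not tested.

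*Efnb1*, an ephrin-B ligand on chromosome X (from 99136130 to 99148991), stood at 74.9 and 77.8 CPM in the controls and at 102 and 109.7 CPM in the *Dot1l*-cKO embryos of litter 2 (log2 fold change 0.48, SE 0.07, adjusted p = 0.00202, edgeR). In litter 1, without the sex-linked difference, *Efnb1* stood at 77.1, 91.9 and 97.7 CPM in controls and at 88.9, 107 and 72.1 CPM in *Dot1l*-cKO, with a log2 fold change of 0.01 (95% interval -0.29 to 0.31). It is the only X-linked member.

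*Epha8*, an ephrin-A receptor (chromosome 4 from 136929419 to 136956816), stood at 10.6 and 8.78 CPM in the controls of litter 2 and at 17.0 and 14.9 CPM in the *Dot1l*-cKO embryos. In litter 1 it stood at 17.9, 16.4 and 18.8 CPM in controls and 20.7, 20.6 and 16.2 CPM in *Dot1l*-cKO. The 2 controls of litter 2 were below all the other 8 embryos, which ranged from 14.9 to 20.7 CPM. The log2 fold change in litter 2 was 0.72 (SE 0.13, adjusted p = 0.00752, edgeR), against 0.12 (SE 0.11) in litter 1.

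*Epha4* (chromosome 1 from 77367185 to 77515088) stood at 173 and 174 CPM in the controls of litter 2 and at 137 and 133 CPM in the *Dot1l*-cKO embryos. In litter 1 it stood at 136, 133 and 130.0 CPM in controls and at 133, 133 and 134 CPM in *Dot1l*-cKO. The controls of litter 2 were thus above the other 8 embryos, which lay close together. The log2 fold change was -0.36 in litter 2 (SE 0.06, adjusted p = 0.00633, edgeR) and 0.01 in litter 1 (SE 0.05). Without *Dot1l*-cKO 6 of litter 2 the adjusted p was 0.0593.

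*Slit2*, a midline repellent that motor neurons and floor plate also make (chromosome 5 from 47983138 to 48307733), stood at 314 and 319.7 CPM in the controls of litter 2 and at 263 and 264 CPM in the *Dot1l*-cKO embryos. In litter 1 it stood at 215, 218 and 246 CPM in controls and 205, 229 and 219 CPM in *Dot1l*-cKO, with overlap. The log2 fold change was -0.26 in litter 2 (SE 0.06, adjusted p = 0.031, edgeR) and -0.05 in litter 1 (SE 0.07). Its call was lost without control 7 (adjusted p = 0.0726), *Dot1l*-cKO 4 (0.127) or *Dot1l*-cKO 6 (0.217) of litter 2. *Epha3*, whose values are given above, had a log2 fold change of -0.45 in litter 2 (SE 0.08, adjusted p = 0.00683, edgeR) and of -0.25 in litter 1 (SE 0.12, adjusted p = 0.385).

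**Figure D3:**
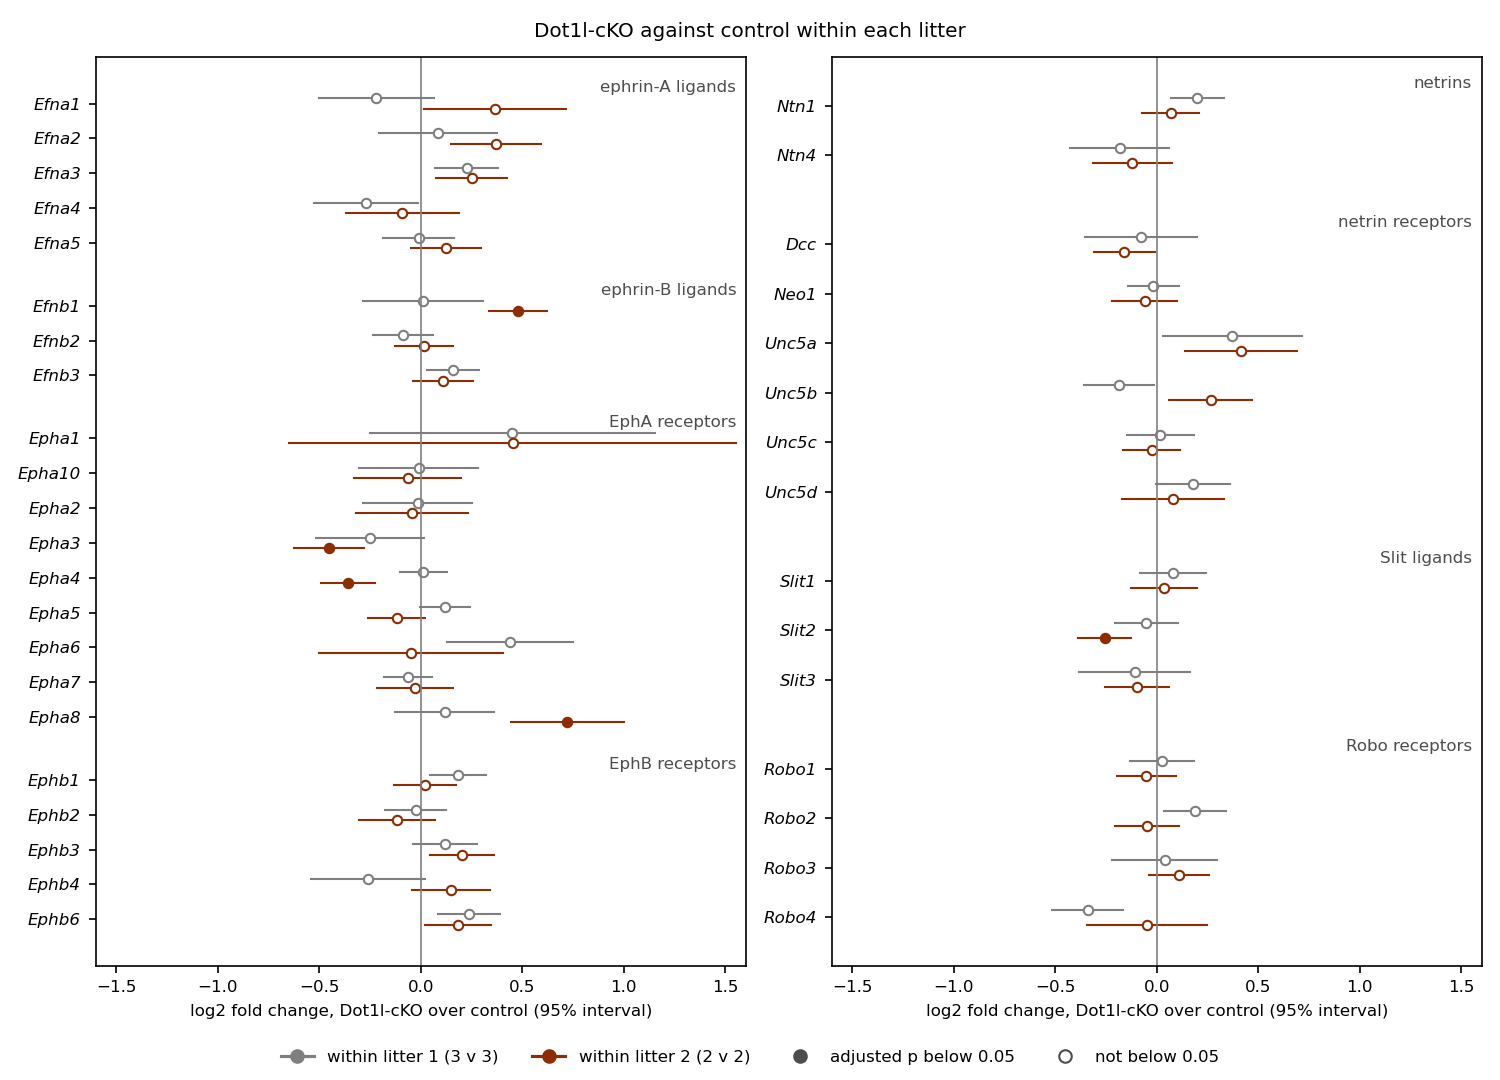
Log2 fold change of *Dot1l*-cKO over control for the 37 members by subfamily, within litter 1 (grey, 3 against 3) and within litter 2 (brown, 2 against 2), with 95% intervals and filled points where the adjusted p is below 0.05. Filled points are present in litter 2 alone, for *Efnb1*, *Epha8*, *Epha3*, *Epha4* and *Slit2*.

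Whether the genotype effect differed between the litters was tested as an interaction. The genotypes of litter 2 also differed in floxed alleles and in sex-linked expression, and those of litter 1 did not. The interaction therefore cannot be told apart from these differences. No member passed edgeR's test, which called 0.00978% of all genes, and 7 of 37 members had an unadjusted p under 0.05, against 8.05% of all genes. The smallest p belonged to *Epha4*, whose log2 fold change was lower by 0.37 in litter 2 than in litter 1 (interaction -0.37, SE 0.08, adjusted p = 0.198, edgeR). DESeq2 called this member alone (adjusted p = 0.0033), where it called 0.583% of all genes. limma-voom called 0 members, where it called 0.00489% of all genes. For *Epha8* the interaction was 0.61 (SE 0.18, adjusted p = 0.399, edgeR) and for *Efnb1* it was 0.47 (SE 0.19, adjusted p = 0.575). For *Efna3* and *Ephb6* it was 0.02 (95% interval -0.21 to 0.26) and -0.06 (-0.27 to 0.16). Of the 37 members, 26 had the same sign in the 2 litters, or 70.3%, beside 62.1% of the 18441 genes tested in both, with Pearson's r = 0.36 across members and across all genes, a description over genes of 2 sets of embryos that share none.

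Between litters, 15 of 37 members passed edgeR's test with genotype in the model. In litter 2, 9 were higher, where 16.9% of all genes were called higher, and 6 were lower, where 17.8% were called lower. The share of members called, 40.5%, was near the 34.7% of all genes. The ligands higher in litter 2 were *Ntn4*, *Slit2*, *Slit3* and *Efnb2*, and the ligands lower were *Efna5* and *Efnb3*. The receptors higher were *Epha2*, *Epha3*, *Epha4*, *Ephb2* and *Dcc*, and the receptors lower were *Epha8*, *Ephb1*, *Ephb6* and *Robo2*. Litter cannot be told apart from anything else that differed between the broods.

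*Epha3* moved most, from 53.7 to 81.5 CPM over the 6 embryos of litter 1 to 116 to 178 CPM over the 4 of litter 2, with no overlap. Its log2 fold change was 0.91 (SE 0.09, adjusted p = 4.9e-06, edgeR), or 1.88-fold. *Epha2*, another EphA receptor, stood in litter 1 at 6.86, 7.99 and 7.41 CPM in controls and 7.29, 8.07 and 6.58 CPM in *Dot1l*-cKO, and the respective litter 2 levels were 12.2 and 11.9 CPM and 12.8 and 10.5 CPM. Its log2 fold change was 0.69 (SE 0.09, adjusted p = 3.8e-05), and the litters did not overlap.

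The litter call of *Epha4* (0.20, adjusted p = 0.0221) was lost without control 4 or control 5 of litter 1 or either control of litter 2, with adjusted p up to 0.0906, and with scaling by library size alone. That of *Ephb1* (-0.16, adjusted p = 0.0298) was lost without control 4, *Dot1l*-cKO 2 or *Dot1l*-cKO 7 of litter 1 or *Dot1l*-cKO 4 of litter 2, with adjusted p up to 0.132, and in each genotype alone. *Epha8* moved the other way, with a log2 fold change of -0.55 (SE 0.12, adjusted p = 0.0028, edgeR), and its litters overlapped. As a share of the per-length EphA signal, *Epha3* went from 19.8 to 20.1% in the controls of litter 1 to 28.4 to 33.0% in those of litter 2. *Epha8* went from 7.49 to 8.43% to 3.00 to 3.69%. The share of *Epha4* was 34.2 to 35.7% and 34.7 to 35.3% in the controls of litters 1 and 2, and 34.7 to 36.7% and 31.7 to 32.5% in the mutants.

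*Ntn4* stood in litter 1 at 14.7, 17.2 and 16.9 CPM in controls and 12.52, 15.9 and 14.4 CPM in mutants, and the respective litter 2 levels were 22.9 and 23.1 CPM and 21.5 and 20.6 CPM. Its log2 fold change was 0.53 (SE 0.07, adjusted p = 9.1e-05, edgeR), with no overlap. *Ntn1* stood in litter 1 at 272, 285 and 288 CPM in controls and 309.5, 337 and 322 CPM in mutants, and in litter 2 controls at 307 and 305 CPM and mutants at 306 and 333 CPM. Its litters overlapped, with a log2 fold change of 0.05 (95% interval -0.05 to 0.15). *Dcc*, the attractive netrin receptor, stood in litter 1 at 174, 161 and 229 CPM in controls and 158, 198 and 175 CPM in *Dot1l*-cKO. The litter 2 levels were 277 and 252 CPM and 243 and 230.0 CPM, all above litter 1 by a small gap. Its log2 fold change was 0.45 (SE 0.09, adjusted p = 0.00108), a call it kept without any 1 embryo. *Neo1* stood in litter 1 at 263, 258 and 284 CPM in controls and 267, 258 and 267 CPM in mutants, and in litter 2 controls at 302 and 265 CPM and mutants at 264 and 277 CPM. Its litters overlapped, with a log2 fold change of 0.06 (95% interval -0.05 to 0.16).

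*Slit2* and *Slit3* had log2 fold changes of 0.38 (SE 0.06, adjusted p = 1.3e-04, edgeR) and 0.37 (SE 0.08, adjusted p = 0.00353), and *Slit1*, the highest Slit per exon length but below *Slit2* in CPM, stood at 177, 163 and 193 CPM in the litter 1 controls and at 165 and 168 CPM in the litter 2 controls (-0.12, adjusted p = 0.147). The 3 *Dot1l*-cKO embryos of litter 1 had *Slit1* at 188, 197 and 176 CPM and those of litter 2 at 156 and 183 CPM, so that the litters overlapped. *Robo3*, the highest receptor per exon length, stood in litter 1 at 219, 265 and 300.2 CPM in controls and at 229, 288 and 284 CPM in mutants, and in litter 2 at 282 and 293 CPM and at 323 and 294 CPM, with overlap (0.17, adjusted p = 0.12). *Ephb2* stood in litter 1 at 297, 298 and 341 CPM in controls and at 293, 309.6 and 315 CPM in mutants, and in litter 2 at 438 and 359 CPM and at 358 and 375 CPM. The litters did not overlap, and its log2 fold change was 0.31 (SE 0.06, adjusted p = 0.00136). *Efna2*, the ephrin-A with the highest mean per exon length, stood in litter 1 at 28.7, 39.1 and 37.2 CPM in controls and at 38.5, 41.4 and 31.1 CPM in mutants, and in litter 2 at 28.5 and 36.3 CPM and at 40.4 and 42.8 CPM, with overlap (0.03, adjusted p = 0.846).

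By ranges, 8 members (*Epha2*, *Epha3*, *Ephb2*, *Slit2*, *Slit3*, *Efnb2*, *Ntn4* and *Dcc*) had all 4 embryos of litter 2 above all 6 of litter 1, and 4 (*Ephb6*, *Robo2*, *Efna5* and *Efnb3*) had them below, against 11.9% and 11.6% of all genes. Some cell type markers moved with the litters. The summed level of 7 neural progenitor markers was 1469 to 1659 CPM in litter 1 and 2057 to 2212 CPM in litter 2. That of 6 ganglion neuron markers was 261 to 400.2 CPM and 124 to 193 CPM, and that of 6 crest glia markers 175 to 238 CPM and 104 to 169 CPM. The 5 erythroid markers summed to 656 to 772 CPM and 1027 to 1547 CPM, and the 5 roof plate markers to 8.24 to 11.2 CPM and 12.1 to 19.6 CPM. The litters overlapped in the sums of the other lists, such as the 7 neuron markers at 7031 to 7737 CPM and 6927 to 7326 CPM. Within such overlapping sums, 2 of 7 neuron markers were called lower in litter 2, 2 of 4 motor neuron markers were called, 1 higher and 1 lower, 3 of 8 mesenchyme markers were called, 2 higher and 1 lower, and 4 of 8 endothelial markers were called lower. Among controls alone 8 of 8 endothelial markers were called lower, at sums of 351 to 406 CPM and 234 to 289.5 CPM, and 6 of 8 mesenchyme markers were called, 1 higher and 5 lower. Their part in the members' values was not tested.

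The litter effect was also fitted in each genotype apart, on embryos that share none. Among controls, litter cannot be told apart from the number of floxed alleles, 2 in litter 1 and 1 in litter 2. Among *Dot1l*-cKO, litter cannot be told apart from the sex-linked difference given above. Among controls 13 members were called, where 24.5% of all genes were called, and among *Dot1l*-cKO 11, where 18.6% were called. Both held *Dcc*, *Efna5*, *Efnb3*, *Epha2*, *Epha3*, *Ephb2*, *Ephb6*, *Ntn4* and *Slit2*, or 9 genes, 69.2% of the calls in controls and 81.8% of those in *Dot1l*-cKO, and all 9 had the same sign in both. Over all genes, 53.7% and 69.5% of the calls were shared. *Epha4* was higher in litter 2 among controls (log2 fold change 0.39, SE 0.06, adjusted p = 0.0011, edgeR) and had 0.01 (95% interval -0.11 to 0.13) among *Dot1l*-cKO. *Epha8* was lower among controls by a log2 fold change of -0.87 (SE 0.11, adjusted p = 2.3e-04) and had -0.26 (95% interval -0.56 to 0.03) among *Dot1l*-cKO. The difference of these effects is the interaction given above, which edgeR with its default filter did not call for either gene. Without the filter on low counts, edgeR called it for both.

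**Figure D4:**
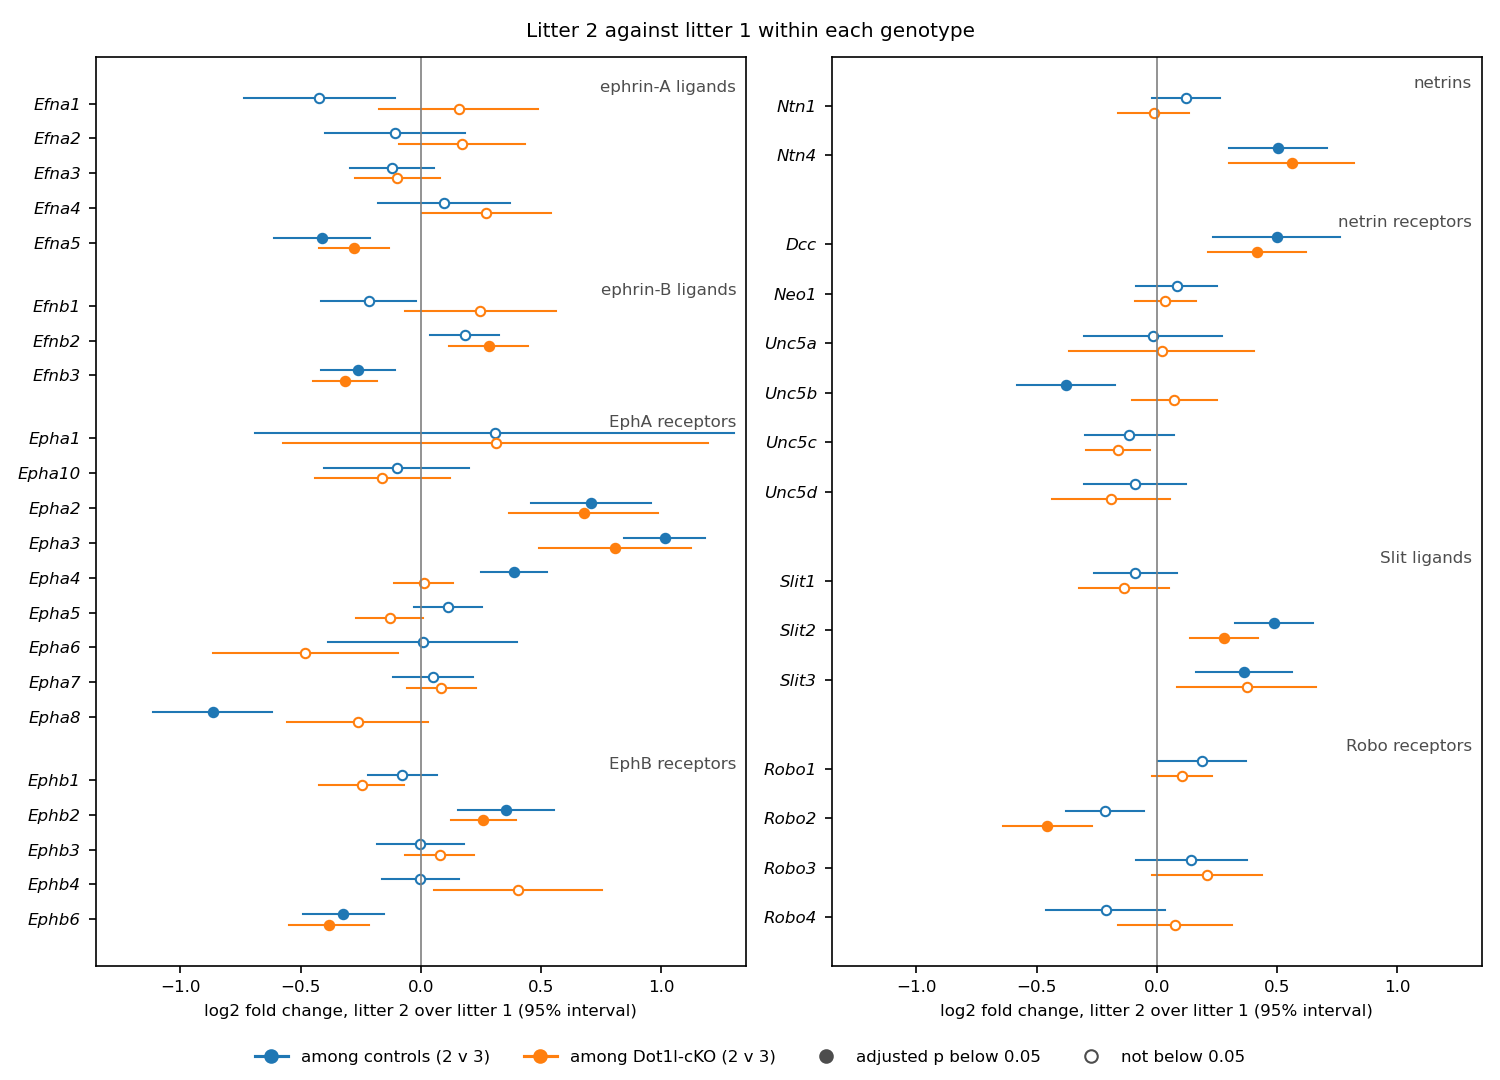
Log2 fold change of litter 2 over litter 1 for the 37 members by subfamily, among controls (blue, 2 against 3) and among *Dot1l*-cKO (orange, 2 against 3), with 95% intervals and filled points where the adjusted p is below 0.05. The 9 members with both points filled lie on the same side of 0 in both genotypes, and of these *Epha3* is the farthest above 0 at 1.01 and 0.81.

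Beyond the members, 39 other genes of these pathways and of guidance in general, such as intracellular partners of the receptors, were counted. Of these, 0 were called higher and 2 lower in *Dot1l*-cKO over both litters by edgeR, where 1.9% and 1.09% of all genes were called, with 9 at an unadjusted p under 0.05, where 21.7% of all genes were, among 15 with a log2 fold change above 0 and 24 below. *Vav2*, which acts downstream of Eph receptors, had 134 ± 13.3 CPM in controls and 119 ± 9.90 CPM in *Dot1l*-cKO (SD, n = 5 each, log2 fold change -0.18, SE 0.04, adjusted p = 0.0446, edgeR). *Ptk2*, the focal adhesion kinase, had 153 ± 13.6 CPM and 137 ± 13.9 CPM (-0.16, SE 0.04, adjusted p = 0.0406). For both, *Dot1l*-cKO lay below controls in each litter, as did 4.15% of all genes. *Vav2* stood at 122 to 129 CPM in controls against 107 to 119 CPM in litter 1, and at 147 to 149.7 CPM against 125 to 131 CPM in litter 2. Within litters 1 and 2 neither was called by edgeR, with adjusted p of 0.293 and 0.0819 for *Vav2* and 0.198 and 0.244 for *Ptk2*. Between litters, 21 of the 39 (53.8%) were called, 9 higher and 12 lower in litter 2, beside 34.7% of all genes.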

How the data were processed

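The authors trimmed paired reads with TrimGalore, aligned them to mm10 with STAR and counted them per gene of a GENCODE annotation with featureCounts in snakePipes, and deposited raw counts for 10 embryos. The strand setting is not given in the sources used here. Counts were analysed as deposited in R 4.3.3 with edgeR 4.0.16 (quasi-likelihood test, TMM, default filter, litter in the model, Benjamini-Hochberg adjustment over all genes at 0.05). limma 3.58.1 and DESeq2 1.42.0 served as alternatives. SE is the size of the log2 fold change divided by the square root of F. Genes were matched to GENCODE annotation of GRCm38, the same build, and 54079 identifiers matched. Levels between genes are per kb of merged exons. Fits were tested on simulated data. All 20 same-group embryo pairs were farther apart than sampling noise. The labels do not tell whether p-values measure more than the spread between these embryos. Members and lists were chosen with earlier results of these data known. Named genes were members called in a genotype or interaction fit, the 5 smallest genotype p-values, the 6 largest called litter changes and the highest member of each subfamily, and partners called for genotype.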

Additional observations from a re-analysis of the deposited data

Results flagged for a closer look

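In 4 groups of 5 embryos, 1 embryo lay far from the others, among 74 groups checked, where chance alone gives about 1 in 20 for groups drawn from 1 population. These groups pool the 2 litters, which differ, so that this rate is not established for them. The embryo's gap to its nearest neighbour was compared with the range of its group (Dixon's test). Control 9 of litter 1 was the highest control for *Epha10*, at 12.7 CPM. *Dot1l*-cKO 4 of litter 2 was the highest *Dot1l*-cKO embryo for *Epha7*, at 88.1 CPM. Control 7 of litter 2 was the lowest control for *Robo4*, at 16.4 CPM, and for *Unc5d*, at 20.1 CPM.

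For a pair of members, all *Dot1l*-cKO embryos lay to one side of the controls in litter 1 and to the other side in litter 2, as did 1.98% of all genes. *Unc5b*, a repulsive netrin receptor also known from blood vessels, stood in litter 1 at 34.3, 30.0 and 33.0 CPM in controls and 27.5, 29.9 and 27.9 CPM in *Dot1l*-cKO. Litter 2 had 26.6 and 23.2 CPM in controls and 30.5 and 29.2 CPM in *Dot1l*-cKO. The interaction was 0.45 on the log2 scale (SE 0.12, adjusted p = 0.374, edgeR). *Epha5*, an ephrin-A receptor of neurons, stood in litter 1 at 87.7, 85.0 and 83.8 CPM in controls and 96.2, 89.2 and 92.4 CPM in mutants. Its litter 2 levels were 90.7 and 93.9 CPM in controls and 82.8 and 86.5 CPM in mutants. Its interaction was -0.24 (SE 0.08, adjusted p = 0.509). Neither difference passed the test.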

How the results depend on the processing

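Over both litters, edgeR called 2 members for genotype (2.99% of all genes), 7 without the filter on low counts (6.25%), 7 by DESeq2 (8.98%), 0 without the litter term (0%), and 0 to 5 on leaving out 1 embryo (0.26 to 7.01%). Within litter 1 it called 0 (0.0623%), with 3 unfiltered (3.78%), 1 by DESeq2 (3.5%) and 0 to 1 on leaving out 1 embryo (0.00507 to 2.07%), and within litter 2 it called 5 (5.13%), with 7 unfiltered (5.51%), 6 by DESeq2 (6.9%), by limma-voom (5.14%) and by library size alone (5.48%), each adding *Efna2*, and 3 to 6 on leaving out 1 (1.96 to 5.52%). For the interaction it called 0 (0.00978%), with 3 unfiltered (1.24%), 1 by DESeq2 (0.583%) and 0 on leaving out any 1 embryo. The cause of these differences was not tested. Between litters 15 members were called (34.7% of all genes), with 11 to 18 over all alternatives (18.6 to 35.5%). The 11 were called among *Dot1l*-cKO alone (18.6%) and the 18 without the filter on low counts (19.9%). Where an arm is left with 1 embryo, that embryo is assumed to vary like the others.

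Single genes were refitted for the 18 members named by rule. Of these, signs turned for 5, in comparisons where none of them was called. For litter, the log2 fold change of *Efna2* was 0.03, with -0.0144 by library size alone, -0.11 among controls and -0.0328 to 0.1264 on leaving out 1 embryo. That of *Efnb1* was 0.02, with -0.0275 by library size alone, -0.22 among controls and -0.0665 to 0.0849 on leaving out 1 embryo. *Ntn1* had 0.05, with -0.013 among *Dot1l*-cKO. *Unc5a* had 0.00, with 0.0063 by DESeq2 size factors, 0.0059 by DESeq2, 0.0168 by limma-voom, 0.0201 among *Dot1l*-cKO and -0.0736 to 0.062 on leaving out 1 embryo. For genotype, *Epha2* had -0.03, with -0.0733 to 0.0166 on leaving out 1 embryo. Of 693 single-gene values under alternatives, 622 kept direction and call, 28 lost the call, 18 gained it and 25 changed sign. No paired analysis was possible because the embryo numbers are not shared between genotypes, and litter served as the block. With 2 embryos per genotype in litter 2 the spread rests on few values, and the counts limit only *Epha1*.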

Other observations

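Guidance genes include some of the longest genes of the nervous system, and 12 of the 37 members span over 250 kb, among them *Dcc* at 1097 kb and *Epha6* at 952 kb. Of the 735 genes of that length tested, 45.6% were called lower and 10.5% higher in litter 2, with a median log2 fold change of -0.18. Of the 12 members, 3 were lower and 4 higher, with a median of -0.07. For the 14929 genes under 50 kb the shares were 15.2% lower and 16% higher, and of the 16 members of that length 3 were lower and 2 higher. In *Dot1l*-cKO over both litters, 0 of the 12 long members and 2 of the 16 short ones were called, with medians of 0.01 and 0.10, beside medians of 0.02 and 0.00 over all genes of these lengths. Of all genes over 250 kb, 2.45% were called higher and 1.36% lower, and of those under 50 kb 1.9% and 0.851%. These classes of length were set after the data were seen and are a description.

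Among the other guidance genes, *Rgma*, a repulsive ligand of neogenin chosen here after its values were seen, was the single one of 39 called in litter 2, where 5.13% of all genes were, at 168 to 173 CPM in controls and 205 to 241 CPM in *Dot1l*-cKO (log2 fold change 0.39, SE 0.08, adjusted p = 0.0126, edgeR). In litter 1 it stood at 156 to 177 CPM and 161 to 239 CPM, with overlap (0.23, SE 0.12, adjusted p = 0.435).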
